A study of Mus musculus with 6 samples.

Results

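Antioxidant and glutathione transferase genes were followed in mouse acute myeloid leukaemia cells of 1 line treated with DB2313, a small molecule given in the labels as an inhibitor of PU.1. The members are 43 genes of the NRF2, glutathione, thioredoxin and peroxidase systems, listed by symbol with no threshold on their values, although earlier results of these data were known when the list was made. Of these, 39 were measured, among 22180 genes tested. Prdx1 and Gstm5 had only array rows annotated with several genes, and Prdx5 and Prdx6 had no row named with 1 gene, so these 4 were not analysed here. The cells carry a homozygous deletion of the URE, an upstream enhancer of Spi1, the gene of PU.1, and are described as low in PU.1. The line was made from 1 leukaemic mouse, so every sample has the same origin. DB2313 was given at 330 nM for 24 h to 3 samples, and 3 vehicle samples got an equal volume of water for the same time. All cells grew in medium with serum and cell-conditioned supernatants. The samples are called biological replicates, but separate cultures are not described, so each p-value reflects only how these samples differed, which may be technical.

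Glutathione is a small thiol that reduces peroxides through glutathione peroxidases and is joined to reactive compounds by glutathione transferases. The thioredoxin system and its peroxiredoxins form a parallel route of peroxide removal. NRF2, encoded by Nfe2l2, is the transcription factor that raises many of these genes under oxidative stress, and KEAP1 holds it in check by sending it to degradation. Myeloid cells produce superoxide for defence, and they also make lipid mediators through membrane proteins of the microsomal glutathione transferase family.

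The values are log2 signals per array row, and the array medians lay between 4.77 and 4.82. Pearson's r across genes was 0.996 within groups and 0.994 to 0.995 across them. Of 12 myeloid progenitor markers, Elane, Prtn3 and Ctsg, which encode primary granule proteases, averaged 13.05, 12.51 and 12.55 with DB2313 and 13.05, 12.46 and 12.51 in vehicle. Of the others, Mpo, the myeloperoxidase gene, had a log2 difference of 0.29 with all treated arrays above vehicle, Fcgr3, an Fc receptor gene, had -0.29 with all below, and Itgam, an integrin gene, had -0.27 with overlapping groups, and none of these passed (adjusted p = 0.281, 0.168 and 0.501). Ptprc, encoding the common leukocyte antigen CD45, was dim at 3.31 with DB2313 and 3.32 in vehicle, under the lower quartile of gene signals (3.89). Spi1 read 6.52, 6.49 and 6.50 with DB2313, against 6.79, 6.88 and 6.95 in vehicle. It fell by 0.37 on the log2 scale (limma adjusted p = 0.0342), and none of the 6 fits on the remaining 5 arrays kept that call (0.0648 to 0.134). Since bulk RNA was measured, fewer cells of a kind and less RNA per cell cannot be told apart.

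Among the members, 2 fell and none rose in the comparison as fitted. Mgst1 and Mgst2 fell, and 37 of 39 did not pass an adjusted p of 0.05 in limma, with p-values adjusted over all genes tested. Among all genes, 1.81% passed, 1.02% higher and 0.789% lower with DB2313. The count and its direction depended on the processing, with 4 higher and 2 lower members after an offset of 32 was added to the linear signal, 4 higher and 3 lower under a trended and robust prior, 3 higher and 2 lower without genes under the median signal, and 0 when all rows of the table were tested. The median log2 difference of the 39 members was -0.0042, and that of all genes was -0.0025. Without adjustment, 14 of 39 members had a p under 0.05, which is 35.9% against 12.7% of all genes, 8 of them higher and 6 lower. The 3 DB2313 arrays did not overlap the 3 vehicle arrays for 18 of the 39, or 46.2%, against 19.3% of all genes. Of these, 10 lay above vehicle, where the share over all genes was 9.75%, and 8 lay below, where it was 9.55%. The members were also measured with less spread than most genes, since their median within-group SD was 0.063 and that of all genes was 0.103. The part of that spread in these counts was not tested. Their median absolute difference was 0.11, against 0.079 for all genes.

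**Figure D1:**
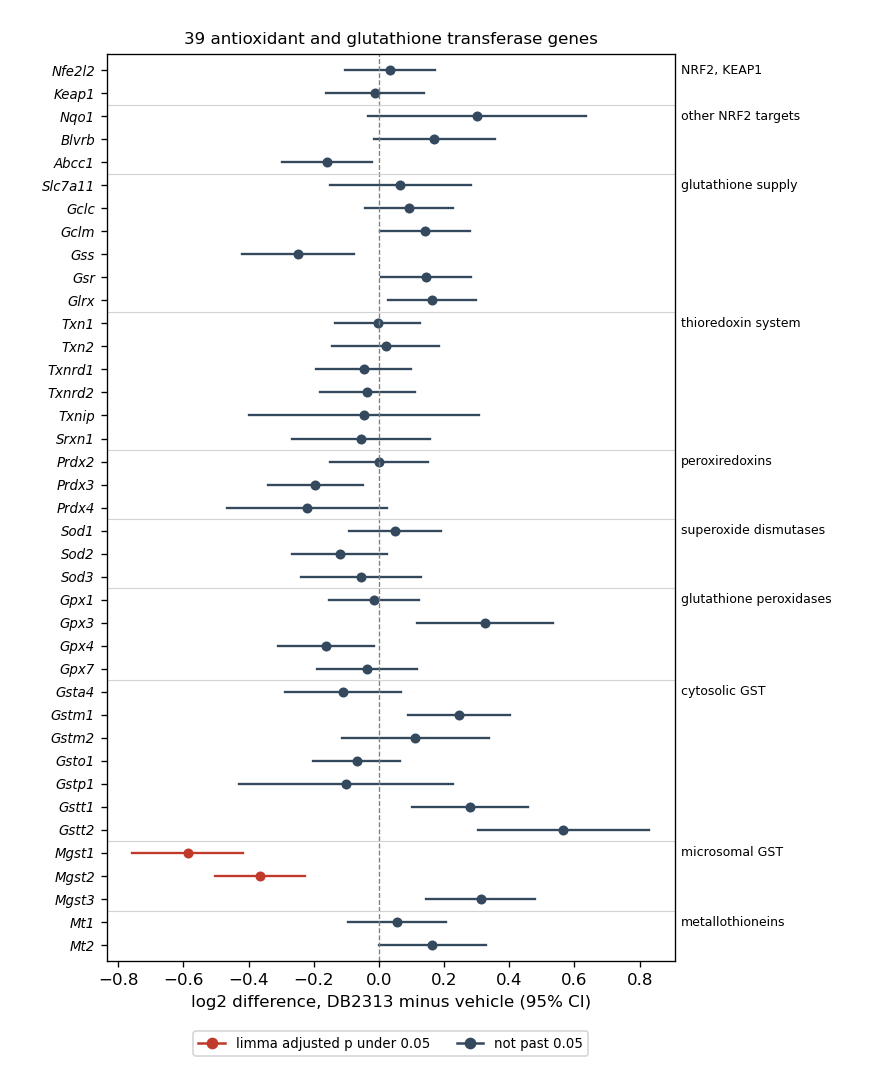
Log2 difference (DB2313 minus vehicle, x axis) with its 95% confidence interval for the 39 measured members, grouped by role from top to bottom, from 3 DB2313 and 3 vehicle arrays. Mgst1 and Mgst2, in red, passed an adjusted p of 0.05, and the interval of each other member is drawn in dark blue, from Gstt2 at 0.57 to Gss at -0.25.

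The microsomal glutathione transferases are small membrane proteins that act on lipid peroxides and lipid mediators. Mgst1, the detoxifying enzyme of the endoplasmic reticulum and the mitochondrial outer membrane, read 8.23, 8.27 and 8.15 with DB2313, against 8.88, 8.84 and 8.69 in vehicle. All 3 treated arrays lay below all 3 vehicle arrays. Mgst1 was 1.5-fold lower, with a log2 difference of -0.59 (SE 0.073, interval -0.76 to -0.42, limma adjusted p = 0.0103). The call was lost without DB2313 replicate 3 (adjusted p = 0.0532), without vehicle replicate 1 (0.0512) and when all rows of the table were tested (0.0546). Mgst2, which can form leukotriene C4 from its precursor, read 8.72, 8.79 and 8.74 with DB2313, against 9.14, 9.14 and 9.07 in vehicle. Its groups did not overlap either, and it was 1.29-fold lower, with a log2 difference of -0.36 (SE 0.060, interval -0.50 to -0.23, adjusted p = 0.0284). None of the 6 fits that dropped an array kept that call (0.0696 to 0.12), nor did the test over all rows (0.107).

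Mgst3, the other microsomal member, read 6.45, 6.31 and 6.25 with DB2313, against 6.01, 6.06 and 5.99 in vehicle. Every treated array was above every vehicle array, but its difference of 0.31 did not pass (interval 0.15 to 0.48, adjusted p = 0.10). It passed when genes under the median signal were left out (0.0263) and with an offset of 32 added on the linear scale (0.0411). Other genes of this membrane family, taken from the wider lists for their family after their values were seen, did not pass. Alox5ap, encoding the protein that presents arachidonic acid to lipoxygenase, had a log2 difference of -0.09, Ltc4s, the leukotriene C4 synthase, -0.05, and Ptges, a prostaglandin E synthase, -0.07.

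Markers of more mature myeloid cells were read beside these falls. None of 8 late granulocyte markers passed, and their summed linear signal ran from 750 to 880 with DB2313 and from 1010 to 1148 in vehicle. Most of that signal was Lcn2, the iron-carrier-binding lipocalin, which averaged 9.37 ± 0.14 with DB2313 and 9.84 ± 0.11 in vehicle (log2, SD, n = 3; limma adjusted p = 0.0550). Of 8 macrophage markers none passed, and their sum ran from 296 to 312 with DB2313 and from 348 to 371 in vehicle. Cd68, encoding a lysosomal glycoprotein, had the largest log2 difference of these 8, at -0.47 (limma adjusted p = 0.0554). Of the 8, 2 were above 0 and 6 below, with 0.11 for Mrc1 and -0.04 for C1qb. The late granulocyte markers Ly6g, Mmp8 and S100a9 were dim, just above the lower quartile of gene signals (3.89). Their means were 3.90, 4.05 and 4.08 with DB2313 and 3.99, 4.08 and 3.97 in vehicle. Retnlg of the same list and the macrophage markers Adgre1 and Vsig4 were under that quartile. Adgre1 was at 3.29 with DB2313 and 3.37 in vehicle. Others were not dim, such as Camp among the granulocyte markers, at 5.69 with DB2313 and 5.67 in vehicle. Among the macrophage markers C1qa was at 5.82 with DB2313 and 5.78 in vehicle, Mertk was at 5.18 with DB2313 and 5.34 in vehicle, and Marco was at 5.04 with DB2313 and 5.09 in vehicle. Arrays give no true 0. Of 5 mast cell and basophil markers none passed, with sums from 284 to 301 with DB2313 and from 242 to 252 in vehicle. These sums were mostly Mcpt8, which had a log2 difference of 0.28 (limma adjusted p = 0.0745). Cpa3, Fcer1a, Tpsb2 and Mcpt4 were under the lower quartile of gene signals. Their log2 differences were -0.03, -0.04, 0.17 and -0.04. Of 6 stromal markers, Cdh5, encoding the endothelial cadherin, rose by 0.86 (adjusted p = 0.00222), and the sums ran from 345 to 373 with DB2313 and from 270 to 285 in vehicle. No other stromal marker passed. Col1a1, Col1a2, Col3a1, Pdgfra and Pdgfrb had log2 differences of -0.18, -0.05, 0.02, 0.06 and 0.08. The part of these markers in the falls of Mgst1 and Mgst2 was not tested.

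The promoters of both genes that fell are shown because PU.1 is an ETS factor, and ETS factors bind sites with a GGAA core. The sequences come from RefSeq, build GRCm38.p6, and hold the 250 bases before the annotated start, 5′ to 3′ on the gene's strand. The Mgst1 window, before the first of its 2 listed starts, is chr6:138140277-138140526, and that of Mgst2 is chr3:51660929-51661178, both on the + strand. Capitals mark a match on either strand to TGACNNNGC or to the ETS site AGGAAGT. TGACNNNGC is a form of the core of the antioxidant response element, through which NRF2 acts.
Mgst1: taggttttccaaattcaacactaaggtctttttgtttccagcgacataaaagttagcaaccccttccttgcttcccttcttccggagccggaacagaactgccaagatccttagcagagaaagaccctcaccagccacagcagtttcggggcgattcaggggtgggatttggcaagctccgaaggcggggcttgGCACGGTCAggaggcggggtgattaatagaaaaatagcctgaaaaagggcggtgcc
Mgst2: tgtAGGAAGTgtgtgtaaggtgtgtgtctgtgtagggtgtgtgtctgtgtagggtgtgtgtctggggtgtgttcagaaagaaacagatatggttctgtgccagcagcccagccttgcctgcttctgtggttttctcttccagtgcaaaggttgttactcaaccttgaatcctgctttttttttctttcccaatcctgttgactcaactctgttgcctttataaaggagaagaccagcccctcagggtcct
The Mgst1 window holds the antioxidant core on its reverse strand at bases 195 to 203, and Mgst2 holds the ETS site at bases 4 to 10. The window before the other Mgst1 start held neither. Of 36 members with a promoter in the table, 2 had the ETS site, Mgst2 and Glrx. Counted per promoter, 3 of 45 member windows held it, or 6.67%, against 7.69% of all 32851 promoters. The longer PU.1 box GAGGAAGT, which contains that ETS site, was in none of the 36 and in 2.44% of all promoters. These matches describe letters in a short window. Only AGGAAGT and GAGGAAGT were searched as ETS sites, so other sites with the GGAA core were not counted. The Mgst1 window shown holds that core within ccggaa. The window before its other start holds it on the reverse strand, within ttcttcctc.

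The cytosolic glutathione transferases conjugate glutathione to soluble reactive compounds, and none of the 7 measured members passed. Gstt2, a theta-class enzyme, came nearest, with 6.51, 6.66 and 6.61 with DB2313, against 5.92, 6.28 and 5.88 in vehicle. The groups did not overlap, although vehicle replicate 2 stood above the other vehicle arrays. Its log2 difference of 0.57 had an interval from 0.30 to 0.83 (adjusted p = 0.0603), and it passed without vehicle replicate 2 (0.0176). It also passed without genes under the lower quartile (0.0410) or the median of signal (0.0203), with the offset of 32 (0.0350) and under a trended and robust prior (0.0110). Gstt1, of the same class, read 5.99, 5.85 and 5.81 with DB2313, against 5.60, 5.69 and 5.52 in vehicle, a log2 difference of 0.28 that did not pass (adjusted p = 0.166). Gstm1, a mu-class enzyme, read 10.46, 10.44 and 10.40 with DB2313, against 10.09, 10.26 and 10.22 in vehicle. All its treated arrays were above all vehicle arrays, with a log2 difference of 0.25 (interval 0.09 to 0.40, adjusted p = 0.163). It passed with the offset (0.0409), without genes under the median signal (0.0472) and under the trended prior (0.00901). Gsto1, an omega-class enzyme, lay below vehicle on every treated array, with a log2 difference of -0.07 (adjusted p = 0.697). Gstm2 had 0.11, Gsta4 -0.11 and Gstp1, the pi-class enzyme, -0.10. Gstp1 had 1 vehicle array apart, replicate 3 at 8.09 beside 7.62 and 7.61, and without it the difference was 0.05.

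The theta genes stand next to each other in RefSeq, in the order Gstt3, Gstt1, Gstt4 and Gstt2, between Ddt and Mif. Gstt3, from the wider list of glutathione genes, read 7.78, 7.90 and 7.84 with DB2313, against 7.18, 7.36 and 7.24 in vehicle. It rose, being 1.49-fold higher with a log2 difference of 0.58 (SE 0.071, adjusted p = 0.00945), and the call was lost without DB2313 replicate 3 (0.0510) and when all rows were tested (0.0510). Chosen after their values were seen, for their position, Gstt4 had -0.01 (adjusted p = 0.980) and the flanking Ddt and Mif had 0.07 and -0.05. Gstt4 was dim, at 4.01 with DB2313 and 4.03 in vehicle. Likewise chosen, the 6 measured mu genes of the other cluster had log2 differences from 0.02 for Gstm3 to 0.41 for Gstm4 (adjusted p = 0.0820), and none passed. Genes within each class are alike in sequence, and whether their array probes are shared was not examined here. The promoter of Gstt3, chr10:75781423-75781672 on the - strand, is shown as that of the cytosolic transferase gene that rose, with capitals as above.
Gstt3: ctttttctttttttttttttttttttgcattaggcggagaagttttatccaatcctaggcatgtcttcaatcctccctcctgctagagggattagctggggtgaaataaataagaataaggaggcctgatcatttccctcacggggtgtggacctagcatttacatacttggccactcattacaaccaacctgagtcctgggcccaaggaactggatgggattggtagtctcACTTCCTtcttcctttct
It holds the ETS site on its reverse strand at bases 233 to 239. The table's windows overlap for its alternative starts.

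**Figure D2:**
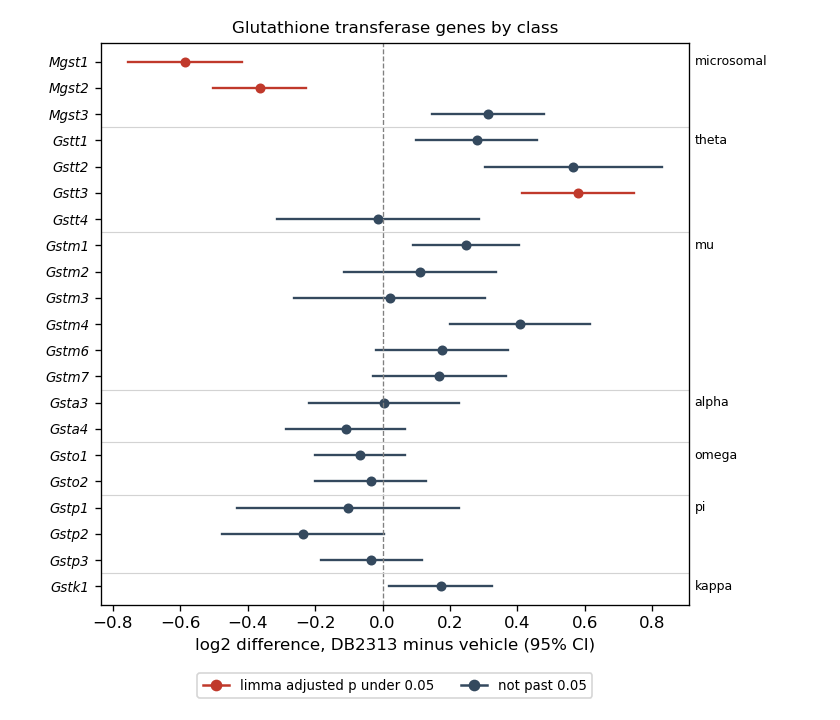
Log2 difference (DB2313 minus vehicle, x axis) with its 95% confidence interval for 21 measured glutathione transferase genes by class, members and genes of the wider list together, from 3 DB2313 and 3 vehicle arrays. Mgst1 and Mgst2 lie left of 0 and Gstt3 right of it, in red for an adjusted p under 0.05, while Gstt2 and Gstm4 lie to the right in dark blue, not past that threshold.

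Nfe2l2 and Keap1, the regulator and its repressor, showed no difference that passed. Nfe2l2 read 9.48, 9.58 and 9.53 with DB2313, against 9.48, 9.51 and 9.49 in vehicle, and its log2 difference of 0.03 had an interval from -0.10 to 0.17 (adjusted p = 0.873). Keap1 read 7.63, 7.64 and 7.59 with DB2313, against 7.57, 7.60 and 7.72 in vehicle, a log2 difference of -0.01 (interval -0.16 to 0.14). A second, dimmer row of Keap1 spread more, with 5.66, 6.59 and 5.46 with DB2313 and 5.87, 6.85 and 6.09 in vehicle. Both groups overlapped in each of these rows. NRF2 is controlled mainly through the stability of its protein, which these arrays do not measure.

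Of 11 measured classical NRF2 targets, 0 passed the threshold as single genes, a count near the 1.81% of all genes that did. Their median log2 difference was 0.091, with 7 above 0 and 4 below. The 27 measured NRF2 partners and further targets of a wider list leaned the other way, with a median of -0.082, 7 above 0 and 20 below. In that list 5 genes lay above vehicle on every treated array and 10 below, where all genes had 9.75% and 9.55%. Among the classical targets, an unadjusted p under 0.05 was reached by 4 of 11, against 12.7% of all genes. These were Gclm, Gsr and Gstm1, which were higher with DB2313, and Abcc1, which was lower. Gsr and Gstm1 passed under the trended prior (limma adjusted p = 0.0286 and 0.00901). Nqo1, the quinone reductase used most often as an NRF2 readout, read 4.40, 4.33 and 4.83 with DB2313, against 4.05, 4.36 and 4.25 in vehicle. Its groups overlapped and its signal was dim, and the difference of 0.30 had a wide interval, from -0.03 to 0.64 (adjusted p = 0.446). Blvrb, a biliverdin reductase, had 0.17 (adjusted p = 0.441). Abcc1, an export pump for glutathione conjugates, read 8.07, 8.05 and 8.10 with DB2313, against 8.20, 8.29 and 8.21 in vehicle. It lay lower on every treated array, with a difference of -0.16 (adjusted p = 0.317). Txnrd1, the cytosolic thioredoxin reductase, read 9.54, 9.46 and 9.54 with DB2313, against 9.57, 9.50 and 9.61 in vehicle, and these values overlapped. Srxn1, which repairs overoxidised peroxiredoxins, had -0.06.

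Of the 9 classical targets with a promoter in the table, 3 hold the antioxidant core, and a pair of them that was measured is shown, with the core, on the reverse strand, in capitals. Gclm is given as chr3:122245307-122245556 and Txnrd1, at the second of its 3 listed starts, as chr10:82858956-82859205, both on the + strand.
Gclm: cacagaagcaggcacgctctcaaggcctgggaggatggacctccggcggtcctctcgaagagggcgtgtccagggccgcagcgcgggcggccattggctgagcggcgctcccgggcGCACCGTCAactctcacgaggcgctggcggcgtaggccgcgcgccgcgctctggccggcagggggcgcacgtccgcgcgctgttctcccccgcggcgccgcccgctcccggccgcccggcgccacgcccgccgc
Txnrd1: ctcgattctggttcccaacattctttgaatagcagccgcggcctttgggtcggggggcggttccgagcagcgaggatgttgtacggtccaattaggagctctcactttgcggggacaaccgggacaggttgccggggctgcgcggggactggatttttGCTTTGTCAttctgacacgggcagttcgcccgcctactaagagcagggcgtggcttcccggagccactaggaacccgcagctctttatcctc
The core was at bases 117 to 125 in Gclm and at bases 159 to 167 in Txnrd1. The windows before the other Txnrd1 starts, and those of Nqo1, Srxn1 and Gstm1, did not hold it. Among the 36 members with a promoter, 8 held it, namely Gclm, Gstm5, Mgst1, Mt2, Nfe2l2, Prdx1, Sod1 and Txnrd1, and 10.2% of all promoters do. Counted per promoter, 8 of 45 member windows held it, or 17.8%. Of the 6 measured members that held it, Mgst1 alone passed the test, and it was lower with DB2313. Only the letters TGACNNNGC were searched for this core, and the Srxn1 window holds tgagtcagc, which differs from them by a single letter.

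**Figure D3:**
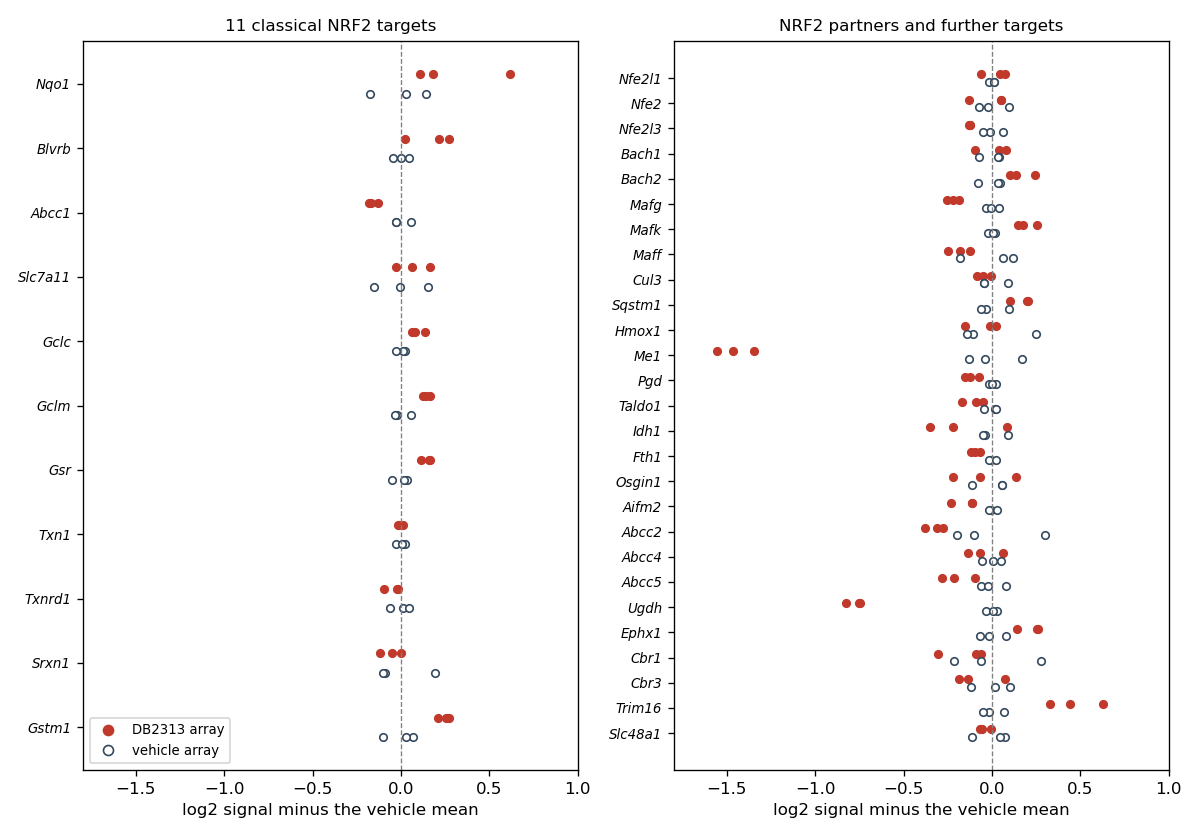
Log2 signal of each array minus the gene's vehicle mean (x axis), for 11 classical NRF2 targets (left) and 27 measured NRF2 partners and further targets (right), with DB2313 arrays as filled red points above vehicle arrays as open points. The DB2313 points of Me1 and Ugdh lie far left of their vehicle points and those of Trim16 lie to the right, while most genes on the left panel stay within 0.3 of the vehicle mean.

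Genes of glutathione supply and recycling showed small shifts, none past the threshold, with 4 of 6 above vehicle on every treated array and 1 of 6 below, where all genes had 9.75% above and 9.55% below. Gclc, the catalytic subunit of the enzyme for the rate-limiting step of glutathione synthesis, read 8.72, 8.74 and 8.79 with DB2313, against 8.68, 8.67 and 8.63 in vehicle. Gclm, its modifier subunit, read 9.74, 9.72 and 9.70 with DB2313, against 9.64, 9.56 and 9.54 in vehicle. Neither overlapped between groups, and their log2 differences were 0.09 (adjusted p = 0.584) and 0.14 (adjusted p = 0.379). Gss, glutathione synthetase, which completes the tripeptide, went the other way with 6.99, 6.96 and 7.08 with DB2313, against 7.15, 7.33 and 7.31 in vehicle. Its log2 difference was -0.25 (interval -0.42 to -0.08, adjusted p = 0.201).

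Gsr, the reductase that regenerates glutathione, read 11.41, 11.46 and 11.46 with DB2313, against 11.33, 11.25 and 11.32 in vehicle. Glrx, glutaredoxin, which removes glutathione from proteins, read 11.22, 11.31 and 11.25 with DB2313, against 11.11, 11.09 and 11.09 in vehicle. Both were higher on every treated array, by 0.15 (adjusted p = 0.366) and 0.16 (adjusted p = 0.292), and both passed under the trended prior (0.0286 and 0.0118), as Glrx did with the offset (0.0383). Slc7a11, the cystine importer, was among the dimmest members, with 3.77, 3.87 and 3.68 with DB2313, against 3.56, 3.70 and 3.86 in vehicle. Its groups overlapped, and its second row had -0.12 where the row used had 0.07.

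**Figure D4:**
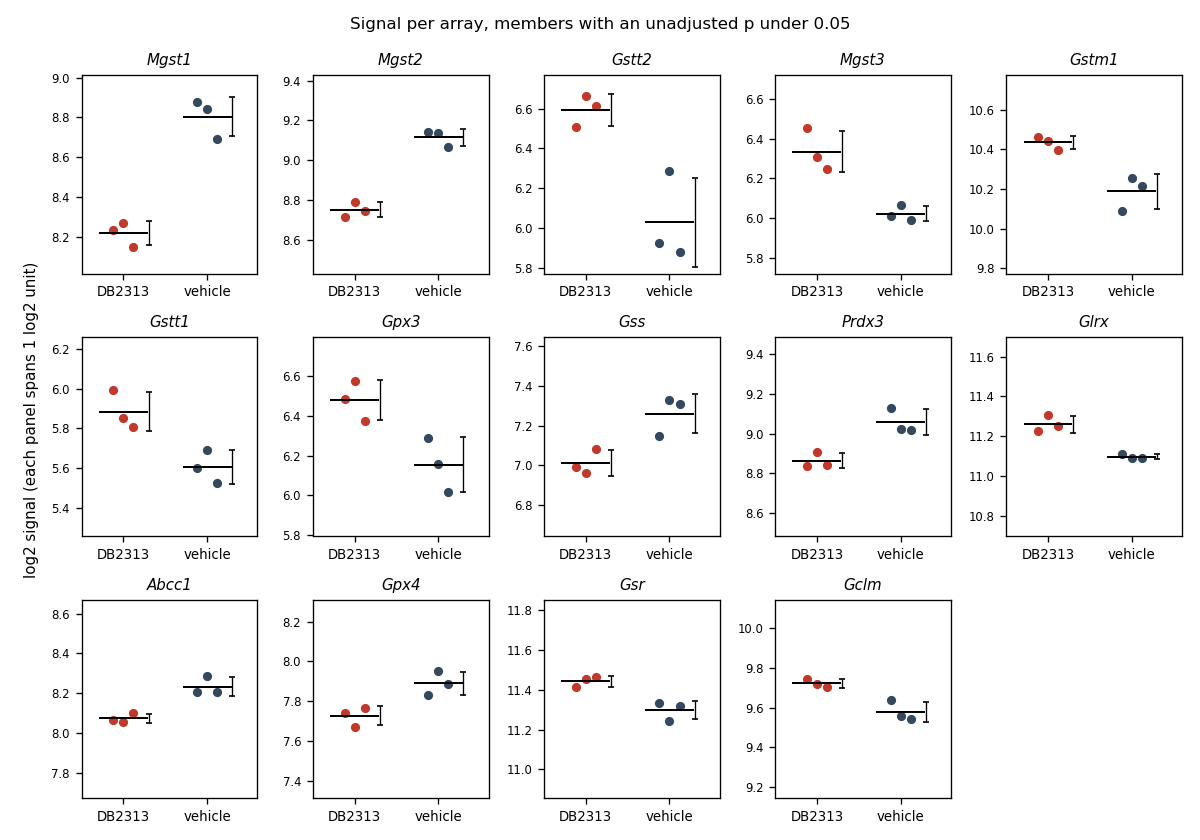
Log2 signal (y axis, 1 log2 unit per panel) on each of 3 DB2313 arrays (red) and 3 vehicle arrays (dark blue) for the 14 members with an unadjusted p under 0.05, ordered by p. Lines are means and bars the SD, and in each of the 14 panels the groups do not overlap.

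The thioredoxin system showed small differences. Of its 6 members, 0 passed the threshold, against 1.81% of all genes, and 0 had an unadjusted p under 0.05, against 12.7%. The groups did not overlap for 0 of 6, against 19.3% of all genes. With 6 genes, counts of 0 are near those shares. Log2 differences ran from -0.06 for Srxn1 to 0.02 for Txn2, the mitochondrial thioredoxin. Txn1, the cytosolic thioredoxin, had -0.0042 with an interval from -0.14 to 0.13, and Txnrd2, the mitochondrial reductase, had -0.04. Txnip, the thioredoxin-binding arrestin that responds to glucose, read 9.45, 9.85 and 9.96 with DB2313, against 9.59, 9.80 and 10.00 in vehicle. It had the widest within-group spread of the members, with an SD of 0.238, and the array numbered 1 was the lowest in both groups.

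The peroxiredoxins are thiol peroxidases that hand their electrons on from thioredoxin, and 3 of 6 were measured. Prdx3, the mitochondrial form, read 8.84, 8.91 and 8.84 with DB2313, against 9.13, 9.03 and 9.02 in vehicle. It was lower on every treated array, with a log2 difference of -0.20 (interval -0.34 to -0.05, adjusted p = 0.238, or 0.0408 under the trended prior). Prdx4, the form of the endoplasmic reticulum, had -0.22 with overlapping groups. Prdx2, abundant in red cells, read 7.32, 7.30 and 7.21 with DB2313, against 7.24, 7.25 and 7.35 in vehicle, a log2 difference of 0.0011.

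Glutathione peroxidases and superoxide dismutases went both ways without a call. Gpx3, the secreted peroxidase of plasma, read 6.49, 6.58 and 6.38 with DB2313, against 6.29, 6.16 and 6.02 in vehicle, a log2 difference of 0.33 (interval 0.12 to 0.53, adjusted p = 0.167). Gpx4, which reduces lipid peroxides in membranes, read 7.74, 7.67 and 7.76 with DB2313, against 7.83, 7.95 and 7.89 in vehicle. It was lower on every treated array, by a log2 difference of -0.16 (adjusted p = 0.342). Gpx1, the main cytosolic form, read 11.37, 11.38 and 11.34 with DB2313, against 11.33, 11.39 and 11.42 in vehicle. Its groups overlapped, with a difference of -0.02 (interval -0.15 to 0.12). Gpx7, of the secretory pathway, had -0.04. The dismutases convert superoxide to peroxide. Sod2, in mitochondria, had -0.12 and did not overlap between groups, Sod1, in the cytosol, had 0.05, and Sod3, outside the cell, had -0.05.

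The metallothioneins Mt1 and Mt2 encode small cysteine-rich proteins that bind zinc and copper. Mt1 read 11.58, 11.66 and 11.63 with DB2313, against 11.50, 11.63 and 11.58 in vehicle, and its groups overlapped. Mt2 read 11.67, 11.71 and 11.59 with DB2313, against 11.39, 11.57 and 11.51 in vehicle. Its groups did not overlap, and its log2 difference of 0.16 had an unadjusted p of 0.0511 (limma adjusted p = 0.398).

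Wider lists of antioxidant genes outside the members held 107 genes, of which 96 were measured, 3 rose, 4 fell and 89 did not pass, where 1.02% of all genes rose and 0.789% fell. Among 27 NRF2 partners and further targets, Me1, the malic enzyme that makes NADPH, read 7.03, 7.12 and 7.23 with DB2313, against 8.75, 8.54 and 8.45 in vehicle. Ugdh, which makes the sugar donor for glucuronidation, read 7.61, 7.68 and 7.69 with DB2313, against 8.40, 8.46 and 8.44 in vehicle. Both groups were far apart for these genes, which were 2.74-fold and 1.71-fold lower, and both kept their calls under every one of 15 alternatives (highest adjusted p 0.0150 and 0.0156). Trim16, an E3 ligase gene, read 6.27, 6.38 and 6.57 with DB2313, against 5.92, 5.89 and 6.01 in vehicle. It rose by 0.47 (adjusted p = 0.0474), a call that none of the 6 fits on 5 arrays kept (0.0630 to 0.159), nor the test over all rows (0.159). Hmox1, the heme oxygenase that NRF2 and BACH1 control, had -0.05 (interval -0.31 to 0.22, adjusted p = 0.913).

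Among 34 other glutathione genes, Gstt3 rose, as above, and Ggt5 fell by 0.68 (adjusted p = 0.0186). Ggt5 encodes the gamma-glutamyltransferase that converts leukotriene C4 to D4, and read 4.93, 4.76 and 4.84 with DB2313, against 5.72, 5.38 and 5.46 in vehicle. The groups did not overlap, but the call was lost without DB2313 replicate 1 (0.0572), replicate 2 (0.0805) or replicate 3 (0.0823), without vehicle replicate 3 (0.0579) and when all rows were tested (0.0824). With an offset of 32 its difference was -0.36. Among 29 further redox enzymes, Arrdc4, an arrestin gene related to Txnip, read 6.84, 6.98 and 6.98 with DB2313, against 7.39, 7.29 and 7.47 in vehicle, and fell by 0.45 (adjusted p = 0.0298). Oxr1, an oxidation resistance gene, read 8.29, 8.23 and 8.31 with DB2313, against 7.89, 7.95 and 7.93 in vehicle, and rose by 0.35 (adjusted p = 0.0307). Neither gene overlapped between groups, but no fit on 5 arrays kept either call (0.0570 to 0.113 for Arrdc4 and 0.0852 to 0.133 for Oxr1). Cat, encoding catalase, had -0.07 (adjusted p = 0.652). None of 6 measured genes of metal handling passed. The smallest p values there were those of Slc39a10, a zinc importer, at -0.37 (adjusted p = 0.0745), and of the metallothionein Mt3 at -0.27 (adjusted p = 0.516). Slc39a10 passed after quantile normalization (0.0452), with the offset (0.0281), under the trended prior (0.0163) and without genes under the lower quartile (0.0462) or the median of signal (0.0205).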

How the data were processed

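Total RNA of 6 samples was labelled with biotin and hybridised to Affymetrix arrays, per the labels' protocols. The authors used Affymetrix Expression Console, per the submitters' processing notes. How background was corrected and probes summarised, and the genome build, is not stated in the labels or files used. The deposited values are log2 signals, as judged from their range, with nearly equal quartiles on every array, so an overall shift in RNA content would not show. Of 41345 rows, 23521 had 1 gene symbol, 1814 several and 16010 none. The brightest row over all 6 arrays was kept per gene. All 39 measured members matched RefSeq by identifier.

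DB2313 was compared with vehicle by limma 3.58.1 in R 4.3.3 (lmFit, eBayes), 2-sided, adjusted by Benjamini-Hochberg over 22180 genes at 0.05. The fit was tested on simulated data. Confidence intervals are at 95%, and the number of arrays limits the precision. Promoter windows were searched for 3 motifs on both strands.

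Members and lists were chosen with earlier results of these data known. Array values are given for members with an unadjusted p under 0.05 and for 13 set by name. From each wider list, genes past the threshold are named, or the 2 with the smallest p, and Hmox1, Cat, Me1 and Spi1 whatever their values. Alternatives were an offset of 32, quantile normalization, median centring, filters on dim genes, each array left out, all rows tested, the mean of a gene's rows, a block for the replicate number and a prior both trended and robust. The offset stands in for another background correction.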

Additional observations from a re-analysis of the deposited data

How the results depend on the processing

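The members past the threshold, 2 in the analysis as reported, numbered 2 after quantile normalization, median centring or the mean of a gene's rows and 3 without genes under the lower quartile of signal. They numbered 6 with the offset of 32, 5 without genes under the median signal, 7 with the trended and robust prior, 0 when all rows were tested, and 0 to 2 when 1 array was left out. Of the members that passed, 4 were higher and 2 lower with the offset, 3 and 2 without genes under the median, and 4 and 3 with the trended prior. The count over all genes, 401, became 830 with the offset, 799 without genes under the median, 920 with the trended prior and 136 to 187 with 1 array left out. With all rows tested, 142 rows of the table passed, and of the rows kept for 1 gene each, 69 were higher and 49 lower. The count in the wider lists, 7, became 12, 12, 13 and 2 to 4 under those first settings, and 2 with all rows tested. With the replicate number as a replicate block, 1 member, 4 wider genes and 190 genes in all passed. Same-numbered arrays correlated at 0.0226, 0.0781 and 0.00828 in their deviations, and arrays of unlike number at -0.0712 to 0.0471. Not every array correlated best with its own number, and such small values cannot decide whether the numbers pair the arrays. Under the block Mgst1 passed and Mgst2 did not (adjusted p = 0.0998), nor did Trim16, Arrdc4, Oxr1 or Spi1 (0.0731, 0.0859, 0.114 and 0.113). Trim16 also missed the threshold after quantile normalization (0.0545). With all rows tested, Arrdc4, Oxr1 and Spi1 missed it too (0.113, 0.113 and 0.124). The members' median log2 difference ran from -0.014 to 0.036 with 1 array left out.

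Of 759 values for 51 genes under 15 alternatives, 668 kept direction and call, 51 lost and 19 gained a call, and 21 changed sign, all among 11 genes. Under quantile normalization Txn1 had 0.013 and Prdx2 -0.018, and Slc7a11 had -0.026 as the mean of its rows. With 1 array left out, values ran from -0.041 to 0.032 for Keap1, -0.018 to 0.0083 for Txn1, -0.038 to 0.063 for Txn2, -0.15 to 0.11 for Txnip, -0.11 to 0.039 for Srxn1 and -0.020 to 0.036 for Prdx2. They ran from -0.041 to 0.0063 for Gpx1, -0.10 to 0.0044 for Sod3, -0.18 to 0.055 for Gstp1, -0.010 to 0.14 for Slc7a11 and -0.12 to 0.078 for Hmox1. A filter at the median signal leaves out the members Nqo1, Slc7a11, Prdx4 and Sod3. The SE was 0.144 for Nqo1 and 0.093 for Slc7a11, against 0.151 for Txnip and 0.141 for Gstp1, which were brighter. Fewer genes or arrays tested changes the adjustment, and beyond that the cause was not tested.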
